A study of Mus musculus with 6 samples.

Results

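Cells move sugars, lactate and related small acids, and the activated sugars used to build glycans, through several families of membrane transporters. This account covers the 74 genes of 6 solute carrier families in RNA sequencing of mouse bone marrow-derived macrophages, out of 55401 genes in the deposited table. Members were found by gene symbol alone: 12 Slc2 genes, 13 Slc5 genes, 14 Slc16 genes, 27 Slc35 genes, 4 Slc37 genes and 4 Slc45 genes. A pseudogene symbol that matched the pattern, Slc2a4rg-ps, was left out. The libraries comprise 3 labelled Mettl3 knockout (Mettl3-/-, hereafter labelled KO) and 3 labelled wild type (WT). All came from C57BL/6 bone marrow grown for 7 days in medium with 10% serum and 40 ng/mL M-CSF, the cytokine that drives macrophage growth, before a treatment whose agent is not named in them. The labels give no age, no Cre driver and no number of animals, so p-values here rest on the variation among 6 libraries, and part of it may be technical.

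Slc2 genes encode facilitative hexose carriers (GLUT proteins), which let glucose or related sugars run down their gradient. Slc5 genes encode sodium-driven carriers of glucose, myo-inositol, vitamins and other solutes. Slc16 genes encode the monocarboxylate transporters and their relatives, of which the best known carry lactate and pyruvate with a proton and need the chaperone basigin or embigin to reach the cell surface. Slc35 genes encode carriers of the Golgi and endoplasmic reticulum, many of which exchange a nucleotide sugar for the matching nucleoside monophosphate and so supply the glycosyltransferases. Slc37 genes encode sugar phosphate exchangers of the endoplasmic reticulum, and Slc45 genes encode a family described as proton-coupled sugar carriers. Activated macrophages are known for fast glucose uptake and lactate release.

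Library totals were 68145877 to 77997742 estimated counts in labelled KO and 67280390 to 68658821 in WT. Mettl3, which encodes the catalytic subunit of the m6A writer of messenger RNA, read 2.50, 2.56 and 2.93 FPKM (fragments per kilobase of transcript, scaled to sequencing depth) in labelled KO, against 2.62, 2.91 and 2.26 FPKM in WT. The gene-level RNA of the targeted gene therefore did not follow the label (log2 fold change 0.02, SE 0.11, edgeR adjusted p = 0.93). Values per exon were not at hand, so loss of part of the transcript or of the protein was not tested. Directions are given for the libraries labelled KO. Macrophage genes were abundant in both groups: Csf1r averaged 687 FPKM in labelled KO and 569 FPKM in WT. Of 8 macrophage markers 3 (Csf1r, Mertk and Fcgr1) were called higher and 2 lower in labelled KO. Lyz2, the lysozyme gene, was called lower, at 6012 FPKM in labelled KO and 14189 FPKM in WT (log2 fold change -1.26), as was Adgre1, at 396 FPKM in labelled KO and 492 FPKM in WT. The summed FPKM of the 8 markers was 8520 to 8620 in labelled KO and 16500 to 16800 in WT, most of it from Lyz2. The summed FPKM of 7 T and NK cell markers was 7.98 to 8.41 in labelled KO and 6.56 to 7.18 in WT, and none of these markers was called. The summed FPKM of 5 B cell markers was 1.62 to 1.82 in labelled KO and 2.03 to 2.15 in WT. That of 6 endothelial and adipocyte markers was 5.74 to 6.47 in labelled KO and 7.04 to 7.40 in WT, with Adipoq at 0 throughout. Of these, Pecam1 was called lower (log2 fold change -0.29), a call that held without KO replicate 1 only. Kdr (log2 fold change -0.29) and Cdh5 (0.43) were tested and not called. Of 11 neutrophil and progenitor markers 10 were tested, and 1 was called higher and 1 lower. Mpo was higher, at 0.553 FPKM in labelled KO and 0.197 FPKM in WT (log2 fold change 1.46), on 37 to 198 estimated counts. The Mpo call was lost without any of WT replicates 1 and 3 and KO replicates 1 and 2 (edgeR adjusted p of 0.0602 to 0.0802). Ltf was lower (log2 fold change -0.38), a call lost without any 1 library. The sums were 55.4 to 65.1 FPKM in labelled KO and 63.6 to 68.1 FPKM in WT. Most of each sum came from S100a9, S100a8 and Ngp, so it says little of scarcer genes such as Mpo. Stromal sums were 2.15 to 2.39 FPKM in labelled KO and 2.01 to 2.51 FPKM in WT. Dcn was called higher (log2 fold change 0.69), a call that held without KO replicate 1 only. The other tested stromal markers were not called. Their estimates were negative for Col1a1, Col1a2, Col3a1, Pdgfra and Pdgfrb and positive for Postn and Cxcl12. Mast cell sums were 0.240 to 0.343 FPKM in labelled KO and 0.220 to 0.246 FPKM in WT, with Fcer1a, Tpsb2 and Ms4a2 at 0 throughout. Erythroid sums were at most 0.0581 FPKM in labelled KO and 0.179 FPKM in WT, and the globin genes Hba-a1, Hba-a2, Hbb-bs and Hbb-bt were at 0 in all 6 libraries. The part of these cell types in the results below was not tested, and in bulk RNA fewer cells of a type and less RNA per cell cannot be told apart.

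The sequences before a RefSeq transcription start of 4 genes are shown. These were the members whose call, described further on, held whichever 1 of the 6 libraries was left out. Slc16a3 encodes MCT4, a proton-coupled lactate exporter, Slc35c1 the GDP-fucose carrier of the Golgi, Slc35b2 a carrier of the sulfate donor PAPS, and Slc37a2 a glucose-6-phosphate exchanger. Each line gives the 250 bases before the transcription start, 5′ to 3′ on the gene's strand, from RefSeq on build GRCm38.p6: Slc16a3 at chr11:120948817-120949066 on the plus strand, Slc35c1 at chr2:92460519-92460768 on the minus strand (the farther upstream of 2 starts in the table), Slc35b2 at chr17:45563686-45563935 on the plus strand and Slc37a2 at chr9:37255739-37255988 on the minus strand. These RefSeq starts can differ from the gene spans given further on. The Slc16a3 window lies wholly inside its gene's span, and the windows of Slc35c1 and Slc35b2 overlap theirs in part. Capitals mark ACGTG or GCGTG on either strand, so CACGC is GCGTG read on the other strand. ACGTG and GCGTG are the core letters of the element that hypoxia-inducible factors bind.
Slc16a3: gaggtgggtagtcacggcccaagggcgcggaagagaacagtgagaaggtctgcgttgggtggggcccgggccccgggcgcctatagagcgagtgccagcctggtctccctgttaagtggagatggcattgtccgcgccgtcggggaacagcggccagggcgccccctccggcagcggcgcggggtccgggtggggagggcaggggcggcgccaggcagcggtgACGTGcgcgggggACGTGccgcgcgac
Slc35c1: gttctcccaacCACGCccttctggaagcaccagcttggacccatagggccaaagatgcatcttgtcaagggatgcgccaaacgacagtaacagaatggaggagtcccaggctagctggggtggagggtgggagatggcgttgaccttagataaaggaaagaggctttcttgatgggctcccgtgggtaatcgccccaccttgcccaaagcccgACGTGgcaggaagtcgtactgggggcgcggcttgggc
Slc35b2: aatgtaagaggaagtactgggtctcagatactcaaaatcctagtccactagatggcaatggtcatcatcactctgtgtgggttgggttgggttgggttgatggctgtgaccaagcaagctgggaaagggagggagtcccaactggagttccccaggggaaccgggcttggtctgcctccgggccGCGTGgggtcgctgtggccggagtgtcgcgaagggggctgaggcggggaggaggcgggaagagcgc
Slc37a2: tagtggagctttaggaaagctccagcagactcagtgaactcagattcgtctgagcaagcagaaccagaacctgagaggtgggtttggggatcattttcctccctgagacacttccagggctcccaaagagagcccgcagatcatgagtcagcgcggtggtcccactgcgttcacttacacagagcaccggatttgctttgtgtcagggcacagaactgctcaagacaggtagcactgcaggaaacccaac
Slc16a3, called higher in labelled KO, held ACGTG 2 times, starting 27 and 14 bases before the transcription start. Slc35c1 held ACGTG starting 37 bases and GCGTG 239 bases before its start, and Slc35b2 held GCGTG 66 bases before its start. Neither set of letters stood in the window of Slc37a2, called lower. The other members called lower did hold GCGTG: Slc16a9 163 bases and Slc5a3 240 and 191 bases before the start, and Slc35g1 at 4 sites. Slc16a10, called higher, held GCGTG 181 and 67 bases before its start. GCGTG thus stood in members called in either direction. A RefSeq window of 300 bases (250 before the start and 50 after it) was at hand for 34 of the 43 tested members. ACGTG was in 10 of these 34 (29.4%), against 25.8% of the 10654 windows of all tested genes, and GCGTG was in 18 (52.9%), against 50.1%. CACGTG, which contains ACGTG and is bound by the carbohydrate-response factor ChREBP among others, was in 4 of the 34 (11.8%), against 10.2%. The members' shares were thus close to those of other expressed genes, and a match is a description of letters, not of a bound site.

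Hexose carriers were among the most abundant members. Slc2a6, which encodes the lysosomal carrier GLUT6, read 29.5, 28.4 and 29.7 FPKM in labelled KO, against 29.3, 31.1 and 30.3 FPKM in WT. Slc2a1, which encodes GLUT1, the main glucose carrier of the cell surface in macrophages, read 31.4, 31.1 and 22.2 FPKM in labelled KO, against 23.6, 23.2 and 22.3 FPKM in WT. Slc2a6 stood above Slc2a1 in every WT library, while in labelled KO the ranges of these genes overlapped. In WT Slc2a1 also lay below Slc37a2 and Slc35e1 in every library, so its place after Slc2a6 in the mean of 6 libraries comes from KO replicates 1 and 2. In FPKM averaged over the 6 libraries they were followed by Slc35e1 (25.0), Slc37a2 (24.0), Slc35c1 (20.5), Slc16a3 (20.2), Slc35f5 (19.7), Slc35b2 (18.2), Slc16a10 (14.3), Slc35b1 (13.2), Slc35a4 (11.9), Slc16a6 (11.3) and Slc35f6 (10.4). Within labelled KO the ranges of Slc37a2, Slc35c1 and Slc16a3 overlapped, so their order there is not set; in WT Slc37a2 was above Slc35c1 in every library, and Slc35c1 above Slc16a3. In all, 13 members averaged at least 10 FPKM, 20 lay between 1 and 10, and 41 were under 1.

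**Figure D1:**
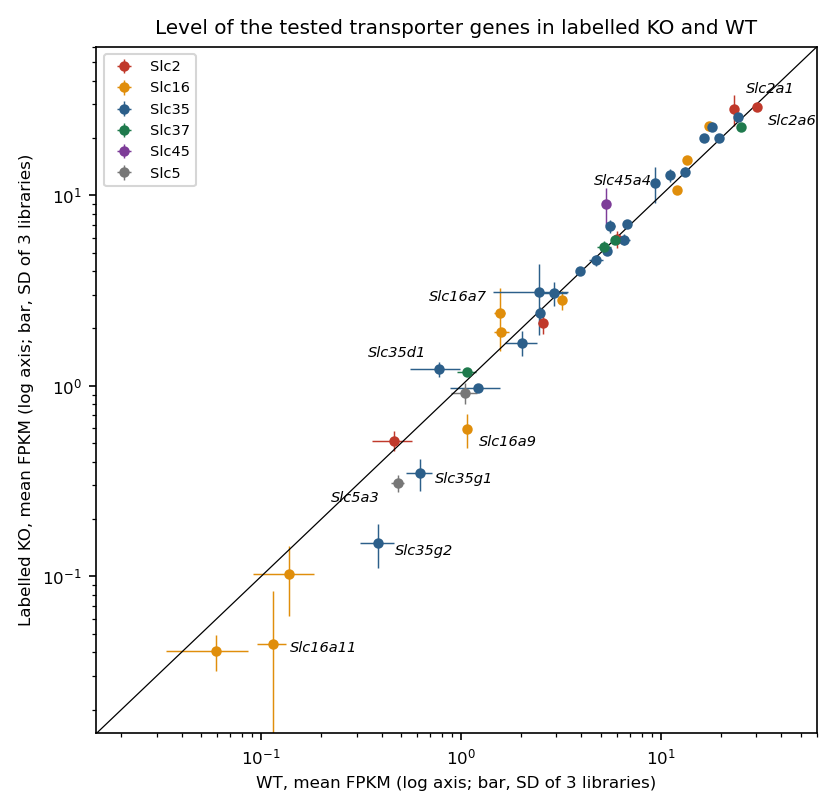
Mean FPKM of each of the 43 tested transporter genes in WT (horizontal) and in labelled KO (vertical), both on log axes, coloured by family; bars are the SD of 3 libraries and the diagonal marks equal levels. Most points lie on the diagonal, with Slc45a4 above it at 8.98 FPKM in labelled KO and 5.33 FPKM in WT, and Slc35g2 below it at 0.150 FPKM in labelled KO and 0.386 FPKM in WT.

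Many relatives were silent or nearly so. Of the 31 members that did not pass the count filter, 16 had a count of 0 in all 6 libraries and the other 15 reached at most 31 estimated counts in any library. A count of 0 allows up to 3 counts, which is 0.0385 to 0.0446 CPM (a count scaled to library size) in these libraries and covers counting error only. The genes at 0 throughout included Slc2a5 (GLUT5, the fructose carrier of the intestine), Slc5a2 (SGLT2, of the kidney tubule), Slc5a5 (the iodide carrier of the thyroid), Slc5a7 (the choline carrier of cholinergic neurons) and Slc45a2 (a carrier of melanosomes). Slc2a4, which encodes the insulin-responsive GLUT4, had a count in 1 WT library only, of 4. Slc2a2 (GLUT2, of liver and beta cells) likewise had a single count above 0, of 8, in 1 WT library. Among Slc5 genes, 2 of 13 were tested, and among Slc45 genes 1 of 4.

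Of the 43 tested members, 9 (20.9%) differed between the groups at an adjusted p under 0.05 (edgeR's quasi-likelihood test, adjusted over all 16256 tested genes), 5 higher and 4 lower in labelled KO. Over all tested genes 12.7% were called, 7.01% higher and 5.67% lower. The median log2 fold change was 0.00 over the members, against 0.00 over all tested genes, and the median size of change was 0.20 and 0.18. The shares depended on level: 5 of 13 members at 10 FPKM or more were called (38.5%, against 28.1% of all tested genes at that level), 1 of 20 between 1 and 10 FPKM (5%, against 11.5%) and 3 of the 10 members under 1 FPKM that passed the count filter, out of 41, were called (30%, against 2.9%). All 5 members called higher averaged above 7 FPKM over the 6 libraries, while 3 of the 4 called lower averaged under 1 FPKM. With 1 library left out, 3 to 5 members were called higher and 1 to 3 lower. The count higher was 3 without any 1 WT library, and the count lower was 1 without WT replicate 2 and 2 without any of WT replicates 1 and 3 and KO replicates 2 and 3. In 18 of the 43 (41.9%) the FPKM ranges of the groups did not overlap, against 33.8% of all tested genes.

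**Figure D2:**
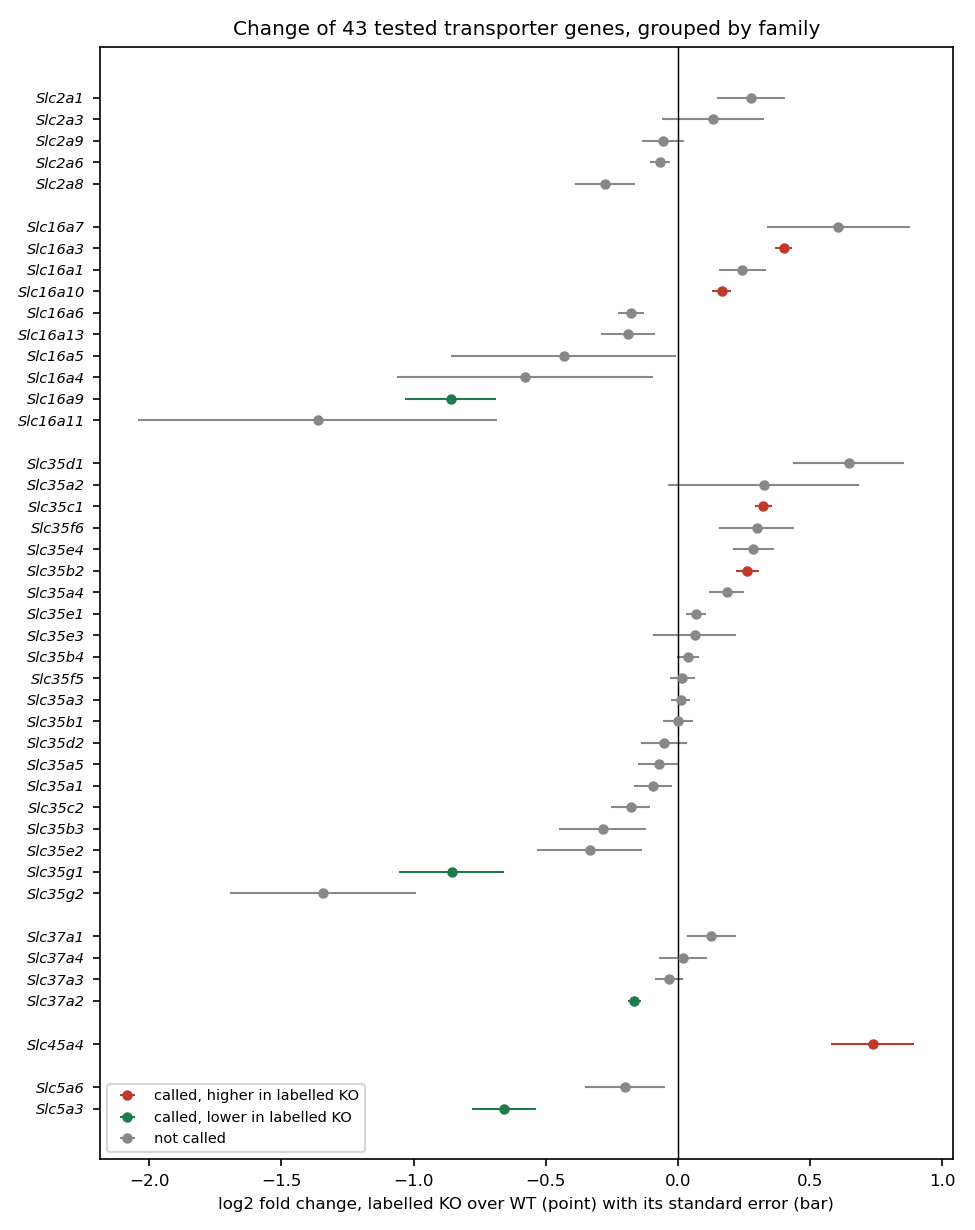
Fitted change, as log2 of labelled KO over WT, for the 43 tested transporter genes (points) with its standard error (bars), grouped from the top as Slc2, Slc16, Slc35, Slc37, Slc45 and Slc5. Red points are the 5 genes called higher, green the 4 called lower and grey the 34 not called; the widest bar belongs to Slc16a11 (SE 0.68), at 0.114 FPKM in WT.

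Among hexose carriers of the Slc2 family, 0 of 5 tested genes were called, where 12.7% of all tested genes were. At an unadjusted p under 0.05 there was 1, Slc2a8, and DESeq2 called 0 of the 5. Slc2a1 had the largest positive estimate (log2 fold change 0.28, SE 0.13, edgeR adjusted p = 0.241). Its KO replicates 1 and 2 lay above every WT library while KO replicate 3 lay below all 3. Without KO replicate 3 the Slc2a1 estimate was 0.42 and passed (edgeR adjusted p = 0.00538). Slc2a6 did not pass (log2 fold change -0.07, SE 0.037, edgeR adjusted p = 0.311). Its groups overlapped. Slc2a8, an intracellular carrier, read 2.05, 1.92 and 2.46 FPKM in labelled KO and 2.47, 2.50 and 2.72 FPKM in WT (log2 fold change -0.28, edgeR adjusted p = 0.184). Slc2a9, a urate carrier, averaged 5.88 ± 0.599 FPKM in labelled KO and 6.04 ± 0.198 FPKM in WT, and Slc2a3, the high-affinity GLUT3, 0.516 ± 0.0639 FPKM in labelled KO and 0.463 ± 0.103 FPKM in WT (SD, n = 3 each). Neither of these passed.

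The lactate exporter gene Slc16a3 was the most firmly called member. Slc16a3 (ENSMUSG00000025161, chromosome 11, 120948480 to 120958775 on the plus strand of mm10) read 22.6, 23.5 and 23.2 FPKM in labelled KO, against 17.0, 17.4 and 17.5 FPKM in WT. Every labelled KO library was above every WT library. The log2 fold change was 0.40 (SE 0.031, edgeR adjusted p = 0.000658). It stayed between 0.39 and 0.42 with any 1 library left out. The exact two-sided permutation p of Slc16a3 was 0.1, the smallest that 3 against 3 libraries allow, as it was for each of the other 8 called members. Slc16a10 encodes TAT1, a carrier of aromatic amino acids rather than of lactate. Slc16a10 (ENSMUSG00000019838, chromosome 10, 40033532 to 40142258, on the minus strand) read 15.6, 14.7 and 15.4 FPKM in labelled KO, against 13.3, 13.7 and 13.3 FPKM in WT. Its rise was small (log2 fold change 0.17, SE 0.036, edgeR adjusted p = 0.0294). That call was lost without any 1 library other than KO replicate 2 (edgeR adjusted p of 0.0608 to 0.10).

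Slc16a9, whose human counterpart carries carnitine, moved the other way. Slc16a9 (ENSMUSG00000037762, chromosome 10, 70245100 to 70285968, plus strand) read 0.677, 0.647 and 0.454 FPKM in labelled KO, against 1.12, 1.03 and 1.05 FPKM in WT. The groups did not overlap, and the log2 fold change was -0.86 (SE 0.17, edgeR adjusted p = 0.023) on 155 to 328 estimated counts per library. The call was lost without any 1 WT library or KO replicate 2 (edgeR adjusted p of 0.0537 to 0.0752). Slc16a9 shares exonic bases with Gm7097 (12.7%) and Gm9877 (10.8%) on the opposite strand, and both of those were at a count of 0 in all 6 libraries.

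The other tested Slc16 genes, among them the lactate and pyruvate carriers MCT1 and MCT2, did not pass by edgeR. Slc16a1, which encodes MCT1, read 1.97, 1.87 and 1.88 FPKM in labelled KO and 1.55, 1.49 and 1.74 FPKM in WT (log2 fold change 0.24, edgeR adjusted p = 0.14). Its labelled KO libraries were all above WT, at a far lower level than Slc16a3. Slc16a7, which encodes MCT2, read 1.41, 2.73 and 3.05 FPKM in labelled KO and 1.57, 1.65 and 1.46 FPKM in WT (log2 fold change 0.61, SE 0.27, edgeR adjusted p = 0.216). KO replicate 1 of Slc16a7 lay below all 3 WT libraries, and without it the estimate was 0.88 and passed (edgeR adjusted p = 0.00519). Slc16a6 read 11.3, 10.2 and 10.6 FPKM in labelled KO and 12.2, 11.5 and 12.2 FPKM in WT. Its log2 fold change was -0.18 (edgeR adjusted p = 0.0698), and DESeq2 called it lower (adjusted p = 0.026). It shares 21.5% of its exonic bases with Amz2 on the opposite strand, a gene that did not pass (5.88 FPKM in labelled KO and 5.72 in WT). Slc16a13 averaged 2.82 FPKM in labelled KO and 3.19 FPKM in WT and its neighbour Slc16a11 0.0443 FPKM in labelled KO and 0.114 FPKM in WT, with log2 fold changes of -0.19 and -1.36 (SE 0.68 for Slc16a11). Slc16a4 and Slc16a5 were at or under 0.183 FPKM in every library, and Slc16a8, Slc16a12 and Slc16a14 were among the genes not tested. The summed FPKM of all Slc16 genes was 56.5, 56.4 and 58.0 in labelled KO, against 50.1, 50.4 and 51.0 in WT, most of it from Slc16a3, Slc16a10 and Slc16a6.

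**Figure D3:**
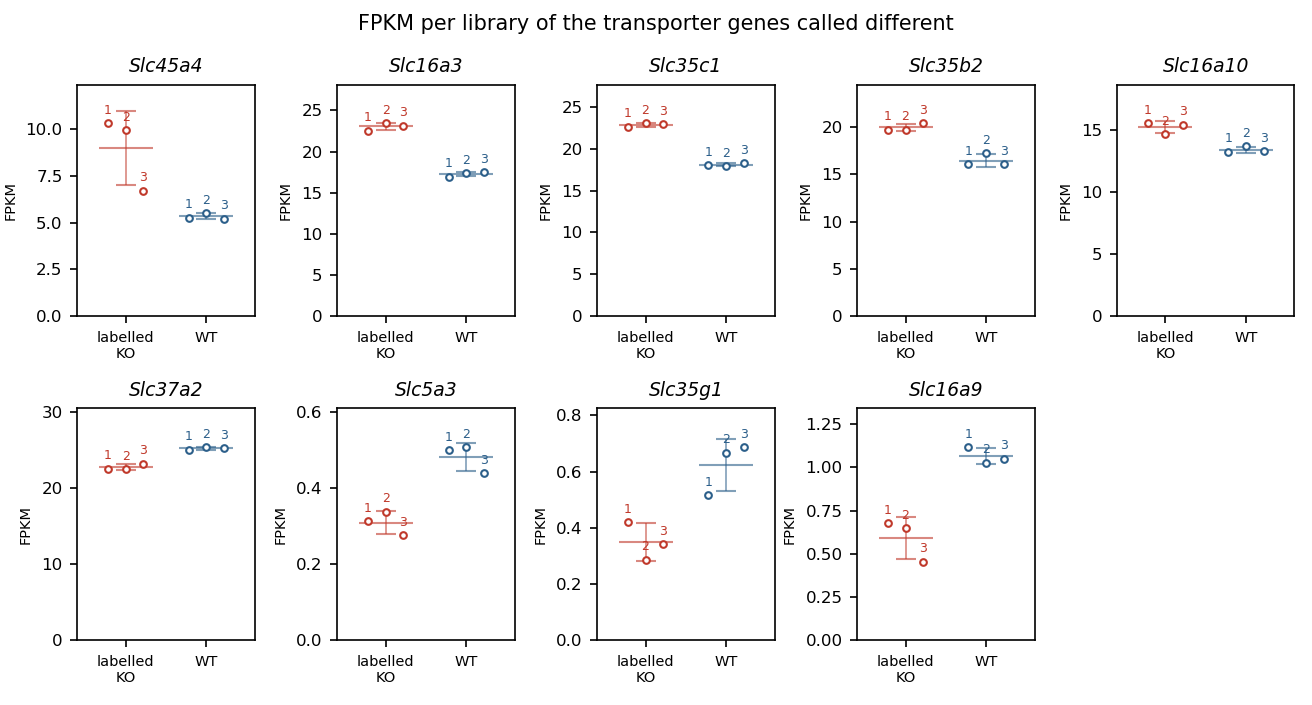
FPKM of the 9 called transporter genes in each library; open circles are libraries with their replicate number, wide lines the group means and bars the SD (n = 3 each), labelled KO left and WT right, each axis from 0. No panel shows overlap between the groups, and KO replicate 3 of Slc45a4 (6.70 FPKM) sits apart from KO replicates 1 and 2 (10.3 and 9.93 FPKM).

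In the nucleotide-sugar family, 3 of 21 tested Slc35 genes were called (14.3%, near the 12.7% of all tested genes). The GDP-fucose carrier gene Slc35c1 (ENSMUSG00000049922, chromosome 2, 92452764 to 92460538, on the minus strand) read 22.6, 23.1 and 22.9 FPKM in labelled KO, against 18.0, 17.9 and 18.3 FPKM in WT. Its log2 fold change was 0.32 (SE 0.031, edgeR adjusted p = 0.00155), with 0.32 to 0.33 when any 1 library was left out. GDP-fucose is the donor for fucosylated glycans such as those that selectins bind. Slc35b2 (ENSMUSG00000037089, chromosome 17, 45563874 to 45567670, plus strand) encodes the main Golgi carrier of PAPS, which sulfotransferases use on heparan and chondroitin sulfate. It read 19.7, 19.7 and 20.4 FPKM in labelled KO, against 16.1, 17.2 and 16.1 FPKM in WT (log2 fold change 0.26, SE 0.043, edgeR adjusted p = 0.0116). No libraries overlapped between groups. Slc35b3, the second PAPS carrier gene, was far lower, at 1.68 ± 0.246 FPKM in labelled KO and 2.03 ± 0.365 FPKM in WT (SD, n = 3 each), and did not pass (edgeR adjusted p = 0.339).

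Slc35g1, a member of the family far below these in level, fell. Slc35g1 (ENSMUSG00000044026, chromosome 19, 38395980 to 38405610, plus strand) read 0.419, 0.286 and 0.341 FPKM in labelled KO, against 0.516, 0.667 and 0.687 FPKM in WT. The log2 fold change was -0.86 (SE 0.20, edgeR adjusted p = 0.0373), on 103 to 246 estimated counts. Leaving out replicate 2 or 3 of either group ended the call (edgeR adjusted p of 0.10 to 0.117) and by limma on log2(FPKM + 0.1) (adjusted p = 0.0716). Its relative Slc35g2 had the more negative estimate of the pair, at 0.107, 0.183 and 0.159 FPKM in labelled KO and 0.437, 0.300 and 0.422 FPKM in WT. On 15 to 53 estimated counts that was a log2 fold change of -1.34 (SE 0.35), and it did not pass (edgeR adjusted p = 0.0561).

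Unlike Slc35c1, the genes for carriers of CMP-sialic acid, UDP-N-acetylglucosamine and UDP-galactose did not pass. Slc35a1, for CMP-sialic acid, averaged 5.09 ± 0.242 FPKM in labelled KO and 5.38 ± 0.243 FPKM in WT (SD, n = 3 each). Slc35a3, linked to UDP-N-acetylglucosamine, averaged 3.99 ± 0.0135 FPKM in labelled KO and 3.92 ± 0.0598 FPKM in WT. Slc35a2, for UDP-galactose, read 2.24, 4.52 and 2.52 FPKM in labelled KO and 1.80, 3.58 and 1.94 FPKM in WT, with replicate 2 the highest library of both groups (an estimate of 0.32 on the log2 scale, SE 0.36). Slc35d1, a carrier of UDP-glucuronic acid and UDP-N-acetylgalactosamine, read 1.14, 1.18 and 1.34 FPKM in labelled KO and 0.536, 0.826 and 0.955 FPKM in WT. Its groups did not overlap, but its log2 fold change of 0.64 (SE 0.21) did not pass (edgeR adjusted p = 0.106). Slc35d2 averaged 2.41 FPKM in labelled KO and 2.48 FPKM in WT, and Slc35b4, for UDP-xylose and UDP-N-acetylglucosamine, 7.05 FPKM in labelled KO and 6.79 FPKM in WT. Slc35b1, reported as an ATP and ADP exchanger of the endoplasmic reticulum, read 13.2, 12.6 and 14.1 FPKM in labelled KO and 13.0, 13.0 and 13.5 FPKM in WT, with an estimate of 0.00 whose sign turned between alternatives.

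The remaining Slc35 genes were not called either. Among the abundant ones Slc35e1 had a log2 fold change of 0.07 and Slc35f5 of 0.02. Slc35a4 read 11.8, 13.7 and 12.6 FPKM in labelled KO and 11.4, 11.1 and 10.6 FPKM in WT, with no overlap (log2 fold change 0.18, edgeR adjusted p = 0.132). Slc35e4 read 6.49, 7.48 and 6.61 FPKM in labelled KO and 5.66, 5.25 and 5.80 FPKM in WT (log2 fold change 0.28, edgeR adjusted p = 0.0656). Slc35f6 read 9.97, 10.3 and 14.5 FPKM in labelled KO and 9.58, 9.10 and 9.26 FPKM in WT, with KO replicate 3 far above the other 5 libraries and no overlap (log2 fold change 0.30, edgeR adjusted p = 0.247). Slc35c2 averaged 5.85 FPKM in labelled KO and 6.55 FPKM in WT (log2 fold change -0.18). The log2 fold changes of Slc35a5, Slc35e2 and Slc35e3 were -0.07, -0.33 and 0.06.

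Sugar phosphate and proton-coupled carriers each had a called gene. Slc37a2 (ENSMUSG00000032122, chromosome 9, 37227585 to 37255738, minus strand) was the most abundant of its family and is known as a macrophage gene. It read 22.5, 22.5 and 23.2 FPKM in labelled KO, against 25.0, 25.4 and 25.2 FPKM in WT. The fall was small but larger than the spread (log2 fold change -0.16, SE 0.026, edgeR adjusted p = 0.00957). Slc37a4, the glucose-6-phosphate translocase lost in glycogen storage disease type Ib, averaged 5.33 ± 0.432 FPKM in labelled KO and 5.19 ± 0.402 FPKM in WT (SD, n = 3 each), and neither it nor Slc37a1 or Slc37a3 passed. Slc45a4 (ENSMUSG00000079020, chromosome 15, 73577424 to 73645345, minus strand) had the largest rise of a called member, at 10.3, 9.93 and 6.70 FPKM in labelled KO against 5.26, 5.51 and 5.22 FPKM in WT. All 3 labelled KO libraries were above WT, with KO replicate 3 nearest to it. The log2 fold change was 0.74 (SE 0.16, edgeR adjusted p = 0.0289). Without any 1 library other than KO replicate 3 the Slc45a4 call was lost (edgeR adjusted p of 0.0831 to 0.0935), and without KO replicate 3 the estimate was 0.91.

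Sodium-driven carriers were scarce. Slc5a3 (ENSMUSG00000089774, chromosome 16, 92058322 to 92087473, plus strand) encodes the sodium and myo-inositol cotransporter induced by high osmolarity. It read 0.313, 0.337 and 0.276 FPKM in labelled KO, against 0.499, 0.507 and 0.438 FPKM in WT, without overlap. The log2 fold change was -0.66 (SE 0.12, edgeR adjusted p = 0.0166). Leaving out any of WT replicates 1 and 2 and KO replicates 1 and 3 ended the call (edgeR adjusted p of 0.0555 to 0.0637). Slc5a3 shares 1.46% of its exonic bases with Mrps6 on the same strand, which was not called (4.43 FPKM in labelled KO and 4.17 in WT). Slc5a6, the biotin and pantothenate carrier gene, averaged 0.919 ± 0.114 FPKM in labelled KO and 1.05 ± 0.154 FPKM in WT (SD, n = 3 each) and did not pass.

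Within-group spread was small for most members and large for a few. Among the 33 members that averaged at least 1 FPKM the median coefficient of variation was 5.47% in labelled KO and 3.62% in WT. It passed 20% for Slc35f6, Slc45a4, Slc35a2 and Slc16a7 in labelled KO and for Slc35a2 and Slc35e2 in WT. The odd library differed between genes: KO replicate 3 was low for Slc2a1 and Slc45a4 and high for Slc35f6, KO replicate 1 was low for Slc16a7, and replicate 2 of both groups was high for Slc35a2.

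**Figure D4:**
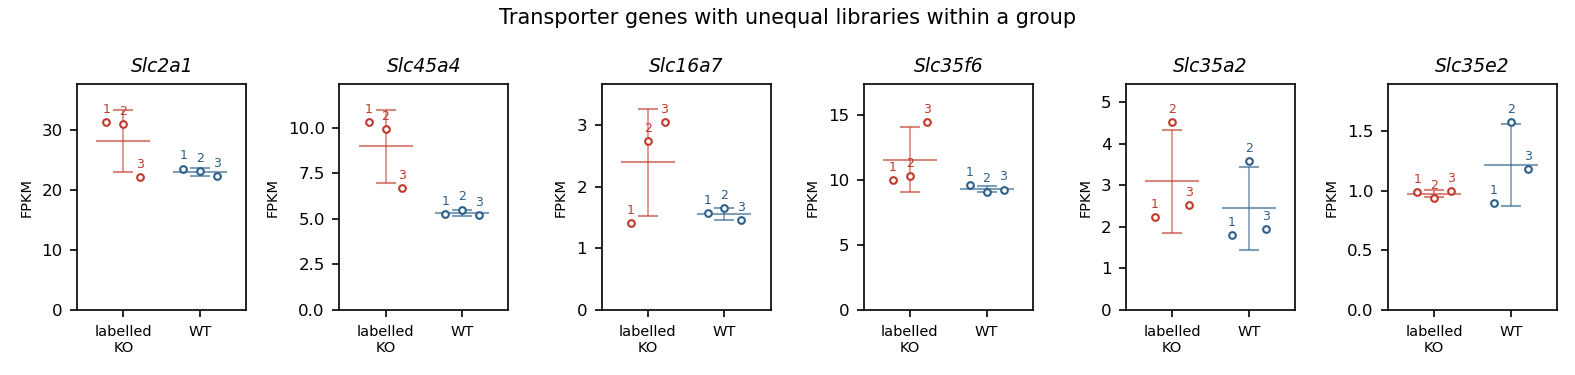
FPKM of 6 transporter genes in each library, drawn as circles with replicate numbers, means and SD (n = 3 each), labelled KO left and WT right, each axis from 0; these genes were chosen after their values were seen. For Slc2a1, KO replicate 3 (22.2 FPKM) lies within 1.5 FPKM of all 3 WT libraries, while KO replicates 1 and 2 lie above 31 FPKM.

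Genes that act beside the transporters were read from 6 related lists. For comparison with the counts of each list, 12.7% of all tested genes were called. That share was 28.1% at 10 FPKM or more and 11.5% between 1 and 10 FPKM. In the list of chaperones and lactate enzymes 1 of 13 tested genes rose and 1 fell (median log2 fold change 0.00). Emb, which encodes embigin, read 113, 127 and 114 FPKM in labelled KO, against 95.6, 87.2 and 97.9 FPKM in WT (log2 fold change 0.32, edgeR adjusted p = 0.0188). The Emb call was lost without WT replicate 1. Ldha, the lactate dehydrogenase chain that favours lactate formation, fell by 0.13 on the log2 scale, to 123.0, 129 and 122 FPKM in labelled KO, against 134, 136 and 135 FPKM in WT (edgeR adjusted p = 0.0241). The Ldha call held without KO replicate 2 only, and was lost without any other 1 library. The 20 glycolysis enzymes split, with 3 higher and 4 lower (median 0.04) and 2 to 4 higher and 2 to 4 lower with 1 library left out; the count lower was 2 without any of WT replicates 1 and 2 and KO replicates 1 and 3. Hk2, the inducible hexokinase that traps glucose in the cell, read 23.3, 23.4 and 22.4 FPKM in labelled KO, against 15.95, 17.6 and 17.4 FPKM in WT (log2 fold change 0.42, edgeR adjusted p = 0.00236). The phosphofructokinase gene Pfkl rose by 0.30, and the aldolase gene Aldoa fell by 0.15 (281 FPKM in labelled KO and 308 in WT). Among 23 genes of glucose-6-phosphate, fructose and galactose handling 4 rose and 2 fell (median 0.01), and 2 were lower with any 1 library left out. The count higher was 1 without WT replicate 2 or KO replicate 2 and 2 without KO replicate 1. Taldo1 and Tkt, of the pentose phosphate pathway, fell by 0.27 and 0.15, and the lysosomal glucosidase gene Gaa rose by 0.17.

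Among 16 regulators of glucose transporter level and traffic 1 rose and 4 fell (median -0.03), where 12.7% of all tested genes were called. The count lower was 1 without any 1 WT library and 2 without KO replicate 1 or 3. Hif1a, the hypoxia-inducible factor chain, read 61.7, 62.0 and 60.5 FPKM in labelled KO, against 51.7, 52.3 and 53.5 FPKM in WT (log2 fold change 0.21, edgeR adjusted p = 0.00213). Txnip, which promotes removal of GLUT1 from the surface, read 56.4, 58.2 and 60.8 FPKM in labelled KO, against 70.4, 71.4 and 70.5 FPKM in WT (log2 fold change -0.29, edgeR adjusted p = 0.00279). Both were called with each library left out. Snx27, a sorting nexin that returns GLUT1 to the surface, fell by 0.25, a call lost without any 1 WT library or KO replicate 1.

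Of 24 tested genes for enzymes that make nucleotide sugars, 1 was called higher and 1 lower (median -0.04). Over all tested genes 12.7% were called. Uap1, which makes UDP-N-acetylglucosamine, read 6.54, 6.43 and 5.78 FPKM in labelled KO, against 4.55, 3.93 and 4.51 FPKM in WT (log2 fold change 0.51, edgeR adjusted p = 0.0107). Its relative Uap1l1 fell by 0.28 (edgeR adjusted p = 0.049), a call that held without KO replicate 3 and was lost without any other 1 library. Of the 36 tested Golgi transferases that use the imported sugars, 12 were higher and 3 lower in labelled KO (median 0.15, against 0.00 over all tested genes), where 12.7% of all tested genes and 28.1% of those at 10 FPKM or more were called. With 1 library left out 5 to 7 were higher, at least 5 fewer whichever library it was, and 3 lower. St3gal1, a sialyltransferase of O-glycans, read 29.3, 30.0 and 28.9 FPKM in labelled KO, against 22.8, 22.3 and 23.4 FPKM in WT (log2 fold change 0.35, edgeR adjusted p = 0.000765). St6gal1, which adds sialic acid in the other linkage to N-glycans, read 4.80, 5.05 and 4.68 FPKM in labelled KO, against 7.91, 7.14 and 7.83 FPKM in WT (log2 fold change -0.67, edgeR adjusted p = 0.00106). Xylt2, which starts heparan and chondroitin chains, fell by 0.36 (edgeR adjusted p = 0.000636). Its relative Xylt1, which has the same role, was called higher (log2 fold change 0.21, edgeR adjusted p = 0.0422), a call lost without any 1 library. The largest rise of the list was that of Chsy1, a chondroitin synthase gene, at 10.5, 10.1 and 12.2 FPKM in labelled KO, against 6.03, 6.62 and 6.51 FPKM in WT (log2 fold change 0.76, edgeR adjusted p = 0.00262), a call kept with each library left out. Xylt1 and Chsy1 were chosen after their values were seen. The fucosyltransferase genes Fut4, Fut7, Fut8, Fut10, Pofut1 and Pofut2, whose enzymes use GDP-fucose, were tested and not called.

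**Figure D5:**
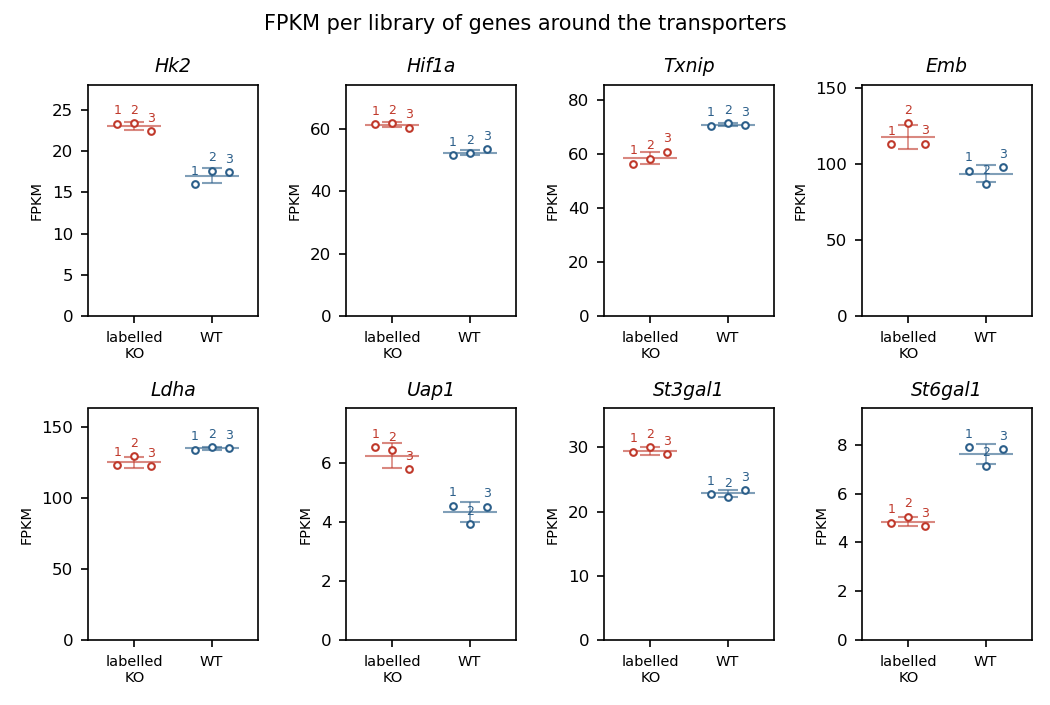
FPKM of 8 genes from the related lists in each library, as circles with replicate numbers, means and SD (n = 3 each), labelled KO left and WT right, each axis from 0. Hk2, Hif1a, Emb, Uap1 and St3gal1 lie higher and Txnip, Ldha and St6gal1 lower in labelled KO, with no overlap in any panel.

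Transcripts of the members held the m6A consensus core GGACT about as often as other genes. The median over the 43 tested members was 1.10 per kilobase of the longest coding transcript, against 1.05 over 12545 tested genes. Among called members it ran from 0.371 per kilobase in Slc16a10 to 1.73 in Slc35g1, with Slc16a3 at 1.15 and Slc35c1 at 0.956. The presence of the letters says nothing of whether a site was methylated in these cells.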

How the data were processed

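Poly(A) RNA of 6 macrophage samples was sequenced, per the labels' protocols. Cutadapt 1.9, HISAT2 2.0.4 and StringTie 1.3.4d with build mm10 are named in the submitters' processing notes; their settings, the annotation release and library strand were not given in the sources used here. Each row of the deposited table holds, per the file headers, FPKM and a count for each gene and library. The deposited counts are treated as estimated counts, because 36.9% to 40.4% of values from 1 to 20 are multiples of 4. Where a count is 0, the FPKM is written as 0.0001. The depth of 67280390 to 77997742 estimated counts per library leaves the tested members under 1 FPKM with far fewer counts than the abundant ones.

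Counts were rounded and tested over the whole table with edgeR 4.0.16 in R 4.3.3 (TMM, filterByExpr with minimum count 10 and total 15, glmQLFit, glmQLFTest; labelled KO over WT). Benjamini-Hochberg adjustment covered 16256 tested genes, with 0.05 as the threshold of a call. Each standard error was derived from the estimate and its F value. The procedure was tested on simulated data. Alternatives were DESeq2 1.42.0, other scalings and filters, limma 3.58.1 on log2(FPKM + pseudocount), a replicate block and each library left out.

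Members and lists were chosen with earlier results of these data known. Named are members called, at 10 FPKM or more in a group, or tested with a log2 fold change of at least 0.5 in size; up to 3 called genes per related list; and Mettl3. Other members were named to account for the families. Exon overlaps and transcripts came from GENCODE M21 (mm10). With the strand unknown, a read where 2 genes overlap may belong to either.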

Additional observations from a re-analysis of the deposited data

How the results depend on the processing

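Same-numbered libraries of the 2 groups deviated from their group means with correlations of -0.0205, -0.0144 and 0.0153, so the numbers were not taken to pair them. With the replicate block 2 transporters (Slc16a3 and Slc35c1) were called higher and 1 (Slc5a3) lower. Slc35b2 and Slc37a2, whose calls held with each library left out, did not pass with the block (edgeR adjusted p = 0.0552 and 0.0503). Over all genes 1012 were called in place of 2060, and in the related lists 10 were higher and 9 lower in place of 22 and 15. By limma on log2(FPKM + 0.1), with pseudocounts of 1 and 0.01 too, 2 transporters were lower, since Slc5a3 was under its FPKM filter and Slc35g1 did not pass. With 1 library left out, 3 to 5 transporters were higher and 1 to 3 lower, 1244 to 1339 genes were called in all, and in the related lists 11 to 16 were higher and 8 to 12 lower; these fits hold fewer samples. Without a filter, Slc16a10 and Slc35g1 were not called (adjusted p = 0.0503 and 0.0589). DESeq2 kept the 9 and added Slc35d1 and Slc35e4 (higher) and Slc16a6 and Slc35g2 (lower). The estimate of Slc35b1 turned positive under library size alone (0.016), limma with pseudocounts of 0.1, 1 and 0.01 (0.015, 0.014 and 0.015), without WT replicate 3 (0.019) and without KO replicates 1 and 2 (0.0034 and 0.036), within a leave-one-out range of -0.046 to 0.036. That of Slc35f5 turned negative without WT replicate 1 (-0.0085) and without KO replicate 2 (-0.012), within a range of -0.012 to 0.050. No called transporter changed direction under the alternatives run, and the cause of each lost call was not tested beyond the fewer samples or genes named here. Members under 1 FPKM rest on few counts, which limits what their values can show.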
